A study of Homo sapiens with 24 samples.

Results

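The genes examined were 9 RNA-binding proteins that have been described as readers of N6-methyladenosine (m6A): IGF2BP1, IGF2BP2, IGF2BP3, FMR1, FXR1, FXR2, HNRNPA2B1, HNRNPC and ELAVL1. Every m6A peak whose gene identifiers included that of a reader was taken from 6 deposited lists. This gave 151 of 228472 peaks, on 9 of the 25016 genes with a peak. The lists came from human embryonic stem cells of the MEL1 line (hPSC), the definitive endoderm (DE) made from them, pancreatic progenitors (PP), islet-like organoids (hILO), wild-type PP of a separate experiment (WT PP) and PP in which ALKBH5, the m6A demethylase, was knocked out (A5-KO PP). By the study's methods the line is MEL1 INS GFP/W, which carries a GFP reporter at the insulin gene and is shared by every population. The first 4 populations formed batch 1, made from mRNA with a SYSY antibody. WT PP and A5-KO PP formed batch 2, made from total RNA with a Millipore antibody, a SMARTer stranded kit and rRNA depletion of the input. Each list was called on 2 immunoprecipitated (IP) and 2 input libraries together, 24 libraries in all, and gives no value per library. There is thus no spread between replicates and no test between populations, and the errors below cover counting only.

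A reader is a protein that binds methylated RNA, or RNA whose fold is opened by the methyl group, and sets the fate of that RNA. The IGF2BP proteins bind through KH domains and are known for keeping target mRNAs stable, and they are abundant in embryonic tissues. FMR1, the fragile X protein, and its relatives FXR1 and FXR2 bind ribosomes and RNA granules. HNRNPA2B1 and HNRNPC act in the nucleus on processing and splicing, and ELAVL1 (HuR) protects AU-rich mRNAs. The m6A mark itself is written in the sequence DRACH, most often as GGAC. In DRACH the letter D stands for A, G or T, the letter R for A or G, and the letter H for A, C or T. Here the mRNAs of the readers are examined as carriers of m6A peaks, not the proteins as binders.

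To show where these peaks lie at the level of the letters, 1 window of 25 nt is given for 8 of the readers. It is centered on the DRACH site nearest to the middle of the region with a peak in the most lists, or of the peaks over that region where the region itself holds no DRACH (IGF2BP2 and FXR2). The sequences are of the GRCh38 reference, on the strand of the transcript and written as DNA, and the capitals mark the DRACH site. A match to these letters is a description and not a mapped methylation site.
IGF2BP1, chr17:49038191-49038215, plus strand, CDS: accagttggaGAACCatgccctgaa
IGF2BP2, chr3:185645310-185645334, minus strand, 3′UTR: aggtttgccaGAACCaccgagcccc
IGF2BP3, chr7:23312219-23312243, minus strand, 3′UTR: ttgtttctgaGGACCaggcaacttt
FXR1, chr3:180976281-180976305, plus strand, 3′UTR: ggtgtttcatAAACTgaagaagttc
FXR2, chr17:7591300-7591324, minus strand, 3′UTR: cctggggaggGGACCaaccttgtct
HNRNPA2B1, chr7:26192280-26192304, minus strand, 3′UTR: agaggtaacaGAACAgcttcaggtt
HNRNPC, chr14:21211343-21211367, minus strand, exon outside the longest isoform: gggggctcagGGACAcatggagtgc
ELAVL1, chr19:7963517-7963541, minus strand, CDS: accgcctgggGGACAaaatcttaca
The region named is that of the center of the site. For FXR1 this center lies 4 nt past the end of the CDS, and the marked letters begin within the stop codon. The FXR1 peaks there reach both the CDS and the 3′UTR. The site is GGAC in 4 of these 8 windows. DRACH is common at these lengths: of peaks within 0.8 to 1.2 times the length of the 175 nt IGF2BP3 region, 97.6% held DRACH and 54.5% held GGAC. For the 50 nt of the FXR2 region the shares were 61.9% and 18.9%.

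A second set of windows is shown because an exon of IGF2BP3 outside its longest isoform carried a peak in each of the 6 deposited lists and was dense in GGAC. With p below 1e-05 it had a peak in 3 of them, hPSC, DE and hILO. The stretch covered by those peaks is chr7:23414695-23415319 on the minus strand of GRCh38, and only 1 annotated transcript, of the retained intron type, holds it as an exon (chr7:23413244-23415565). It held 21 GGAC and 28 DRACH sites in 625 nt. The bases matched those 35 nt further on at 45.8% of positions, the highest share of any spacing tested and against a mean of 27.1% over all spacings, so it is an imperfect tandem repeat. The first 5 windows from its 5′ end that do not overlap, with room for 10 bases on the 5′ side, follow, with GGAC and the next base in capitals.
Repeat window, chr7:23415265-23415289: tgacgtacagGGACTtggtgatgcg
Repeat window, chr7:23415229-23415253: tgatgggtagGGACCtggtgatgcg
Repeat window, chr7:23415199-23415223: gccgactgacGGACGggacctggtg
Repeat window, chr7:23415164-23415188: gccgactgacGGACGggacctgctg
Repeat window, chr7:23415124-23415148: ctgacagacaGGACCtggtaatgca
Of the 94851 peaks of all lists that are at least 200 nt long, 36 were as dense in GGAC as the 33.6 sites per 1000 nt of this stretch, or 0.038%. This counts peaks and not separate places, and the stretch was picked after its density was seen. Its own peaks in hPSC (21 GGAC in 625 nt), DE (19 in 425 nt) and hILO (8 in 200 nt) meet that limit themselves. GGACG is not a DRACH site, so some of these GGAC sites do not count as DRACH.

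Before enrichment was compared, the rows of the lists were checked, since a peak's coordinates and its reads did not always belong together. Peak numbers followed gene order in most rows and were displaced in 10.9% to 17.6% of the rows of a list, and the rows between them were shifted by up to 32 rows. By the order of the peak numbers, the share of rows that carried the reads of another peak was 60.4% for hPSC, 62.7% for DE, 85.3% for PP and 89.0% for hILO. It reached 90.8% for WT PP and 91.8% for A5-KO PP. The reads were therefore assigned to coordinates by peak order alone, with no read value used. Input reads at peaks with the same coordinates in hPSC and DE then correlated across 1617 displaced peaks with a Spearman rho of 0.781, against 0.226 in the rows as deposited and 0.859 in 917 peaks already in register. For WT PP and A5-KO PP the values were 0.769, 0.263 and 0.92. These points share genes and libraries, so the values are descriptions.

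**Figure D1:**
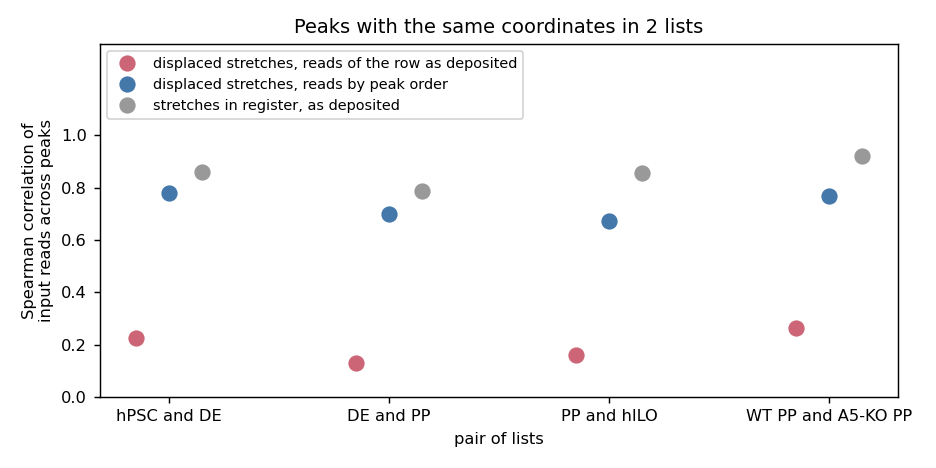
Spearman correlation of input reads between 2 lists (vertical axis, 0 to 1) across peaks with the same coordinates, for 4 pairs of lists (horizontal axis). Blue points, with reads assigned by peak order, lie between 0.674 and 0.781, red points, with the rows as deposited, between 0.131 and 0.263, and gray points, from stretches already in register, between 0.787 and 0.92.

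In simulated lists the row kept for a peak was right in 94.2% to 98.1% of cases and within 1 row in 99.6% to 99.7%, so a value below can still be that of a neighboring peak. The simulated lists held 32378 to 35965 rows, fewer than WT PP (43312) and A5-KO PP (55219). Their shifts stayed below the largest of hILO and WT PP (14 rows each) and of A5-KO PP (32 rows). The accuracy under such larger shifts was not tested. Of the 151 reader peaks, 138 have reads here, 53 from their own row and 85 from another. The other 13 have none, 8 for want of a clear row and 5 because no row carried the number found. Positions and numbers of peaks do not depend on this step. Enrichment is the log2 ratio of IP to input reads, with 1 added to each, minus the median of that ratio in the list. A value of 0 is thus a typical peak of its list, and a value below 0 is still a called peak.

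The labels were checked against 3 marker genes for each stage. Of the pluripotency genes, POU5F1 and NANOG had peaks in hPSC and DE, and LIN28A in all of batch 1. Of the endoderm genes, GSC had a peak in DE alone, SOX17 in DE and both lists of batch 2, and CXCR4 in every list. Of the pancreatic genes, PDX1 and NKX6-1 were marked in PP, hILO and batch 2, while PTF1A was marked in batch 2 but not in PP. The PTF1A peak of A5-KO PP had 0 input reads. INS, GCG and SST, the hormone genes of the islet, had peaks in the hILO list alone. All 3 hepatic genes had peaks in hILO (ALB, AFP and APOA1), and some did elsewhere: APOA1 in DE and WT PP, and AFP in WT PP and A5-KO PP. None had a peak in hPSC or PP, and the part of other cell types in the results below was not tested. Input density, the input reads per kb of peak scaled to 1000000 input reads in the peaks of a list, was 384 over the ALKBH5 peaks of WT PP and 38.5 over those of A5-KO PP. Input reads in peaks numbered from 6987612 (PP) to 28463998 (hILO). The share of peaks with no input read was at most 0.184% in batch 1, 11.1% for WT PP and 24.5% for A5-KO PP.

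Most reader mRNAs had a peak in every deposited list. IGF2BP1, IGF2BP2, IGF2BP3, FMR1, FXR1, FXR2, HNRNPA2B1 and ELAVL1 had a peak in each of the 6 lists, 8 of 9 readers, where 37.7% of 20046 protein-coding genes did. HNRNPC had a peak in the 4 lists of batch 1 and in neither list of batch 2. Single lists marked 60.2% of protein-coding genes for hPSC, 57.0% for DE, 52.2% for PP, 57.7% for hILO, 62.8% for WT PP and 69.7% for A5-KO PP, beside all 9 readers in batch 1 and 8 of 9 in batch 2. IGF2BP3 held the most peaks, 30 over the lists, and IGF2BP1 and ELAVL1 the fewest, 8 each. The deposited lists also hold peaks that miss the study's threshold on p of 1e-05. Of the 138 reader peaks with reads 104 (75.4%) were below it and 34 were not, beside 63.3% below it among all peaks with reads. With that threshold IGF2BP2, FXR1, FXR2 and HNRNPA2B1 had a peak in every list, 4 of 9 readers where 21.7% of protein-coding genes did. IGF2BP3 then had none in PP, IGF2BP1 and FMR1 none in A5-KO PP, and the ELAVL1 peaks of PP and hILO have no reads here. IGF2BP3 fell to 14 peaks, behind IGF2BP2 and HNRNPA2B1 with 18 each. The median reader had 3 peaks in hPSC, DE and hILO and 2 in PP, WT PP and A5-KO PP, beside a median of 2 over all genes with a peak in every list.

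**Figure D2:**
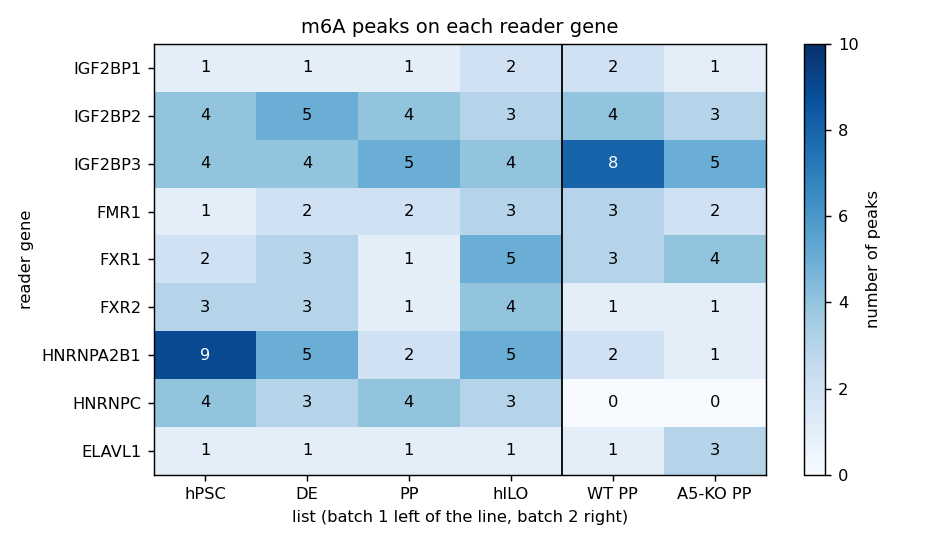
Number of m6A peaks (color and digit) on each reader gene (vertical axis) in each of the 6 lists (horizontal axis), batch 1 left of the line and batch 2 right. HNRNPA2B1 ranges from 9 peaks in hPSC to 1 in A5-KO PP, IGF2BP3 has its highest number, 8, in WT PP, and HNRNPC has 0 in both lists of batch 2.

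The peaks were placed on the transcripts by their midpoint. On the longest coding isoform 51 of 151 (33.8%) lay in the 3′UTR, 33 (21.9%) in the CDS, 13 (8.61%) in the 5′UTR and 54 (35.8%) in exons outside that isoform. Over all peaks the shares were 26.6%, 38.4%, 3.7% and 31.3%. The reader peaks covered 74 separate stretches of exon, each made of the overlapping or touching peaks of any list. Of these, 7 had a peak in all 6 lists, 18 in at least 4 and 31 in a single list, or 9.46%, 24.3% and 41.9%. Over the 134482 stretches of all genes with a peak these shares were 7.02%, 18.5% and 56.4%, and over the stretches of genes with a peak in every list 16%, 32.4% and 41.2%. The 7 stretches with a peak in every list lay in IGF2BP2 (2 stretches), IGF2BP3 (2), FMR1, HNRNPA2B1 and ELAVL1 (1 each). Those of FMR1 and HNRNPA2B1 were chains of peaks, and no single base of these genes lay under peaks of more than 5 lists.

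**Figure D3:**
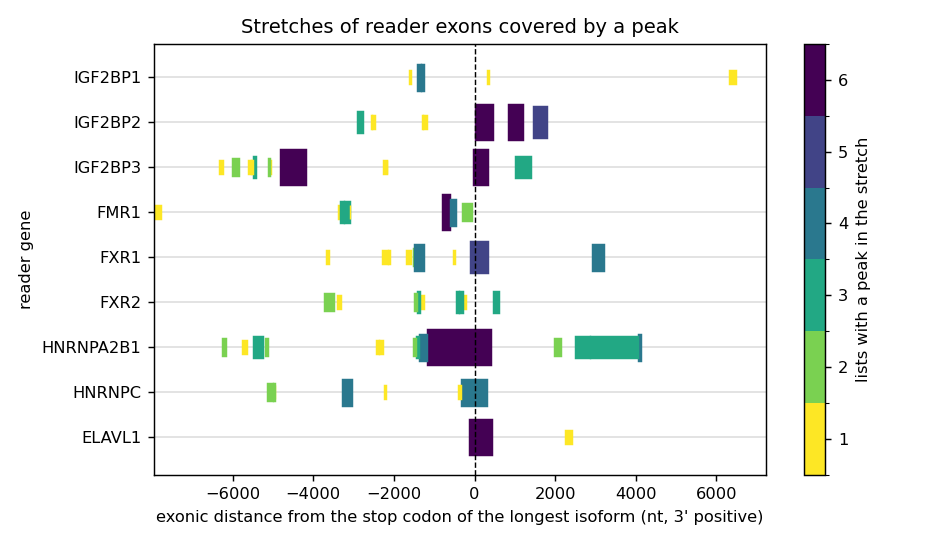
Stretches of reader exons covered by a peak, by exonic distance of their midpoint from the stop codon of the longest isoform (horizontal axis, nt, 3′ positive, all annotated exons counted). Bars are drawn to length, and their color and height give the number of lists with a peak, from 1 to 6. By midpoint, stretches found in all 6 lists lie 3′ of the stop codon in IGF2BP2 and ELAVL1, 5′ of it in FMR1 (CDS) and HNRNPA2B1 (a stretch of 1594 nt centered at −378), and in IGF2BP3 both 3′ of the stop codon and in the repeat exon.

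Of the IGF2BP readers, IGF2BP3 had the most peaks, 30 beside 23 on IGF2BP2 and 8 on IGF2BP1, but with p below 1e-05 the order turned, to 14, 18 and 6. Peaks covered 24.0% of its exons, beside 29.1% for IGF2BP2 and 4.67% for IGF2BP1. Its 3′UTR region at chr7:23312084-23312258, in the last exon (exon 15) and 194 nt past the stop codon, had a peak in each list and held 8 DRACH sites. The peak over it had 1250 input and 12861 IP reads in hPSC, 425 against 911 in DE, 350 against 1170 in PP and 662 against 1684 in hILO. WT PP had 453 against 1505, and A5-KO PP 299 against 893. The enrichment was 0.07 ± 0.04 (counting error) in hPSC, then −0.25 ± 0.08 in DE, −0.46 ± 0.09 in PP and −0.07 ± 0.07 for hILO. For WT PP it was −0.30 ± 0.08 and for A5-KO PP −0.86 ± 0.10. It was close to a typical peak in hPSC and hILO and lowest in A5-KO PP. By the deposited log2 values it was 0.22, −0.15, −0.95, −0.24, 0.00 and −0.12 in the same order, with PP lowest, so the order of the lists depends on the measure. Input density over this peak was 448 for hPSC, 135 for DE, 250 for PP, 71.6 for hILO, 63.5 for WT PP and 78.4 for A5-KO PP. Over all shared pairs the median log2 change in input density was −0.02 from hPSC to DE, 0.76 from DE to PP and −1.02 from PP to hILO. From WT PP to A5-KO PP it was 0.51, so densities of different lists are not a direct measure of RNA level. In these bulk samples fewer cells that express a gene and less RNA per cell cannot be told apart.

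The repeat exon of IGF2BP3 showed another pattern, with few input reads and high enrichment. The hPSC peak spanned all 625 nt, with 60 input and 925 IP reads. The DE peak spanned 425 nt, with 90 and 346 reads. In PP the stretch was split into 4 peaks of 50 to 100 nt, with 6 to 12 input and 70 to 113 IP reads each. In hILO there were 2 peaks, with 113 and 522 reads and with 88 and 355. WT PP had 1 peak of 150 nt with 52 and 312 reads, and A5-KO PP 1 of 100 nt with 53 and 199. Enrichment was 0.63 ± 0.19 in hPSC and 0.58 ± 0.17 in DE, and ran from 0.46 ± 0.44 to 1.15 ± 0.59 in PP. It was 0.79 ± 0.15 and 0.59 ± 0.17 for the hILO peaks, 0.54 ± 0.22 for WT PP and −0.54 ± 0.22 for A5-KO PP. The peaks of the repeat stood above the median of the list in the first 5 populations, and in PP they were the only 4 of 17 reader peaks with reads that did. By the deposited log2 values 2 of the 4 PP peaks (−0.10 and −0.26) and the WT PP peak (−0.56) were below it. Input density was 12.0 to 41.7 across these peaks, below that of the 3′UTR peak in the same list. Toward the 5′ end, an exon outside the longest isoform (chr7:23467851-23467926) had peaks in hPSC, DE and WT PP. The CDS stretch chr7:23469957-23470131 had a peak in hPSC, with 347 input and 3046 IP reads and an enrichment of −0.16 ± 0.08, and 2 peaks in WT PP. A distal 3′UTR stretch, chr7:23310959-23311358, was marked in hILO, WT PP and A5-KO PP and in none of the other 3 lists. How reads of a tandem repeat were placed by an aligner that kept 1 alignment per read was not tested.

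IGF2BP2 was marked along its 3′UTR. The stretch at chr3:185645080-185645529 began near the stop codon and the stretch at chr3:185644330-185644704 lay further 3′, and both had a peak in every list. Another stretch, at chr3:185643730-185644079, was found in every list except hILO. Its peaks overlap the 3′UTR of the longest isoform in part, and their midpoints lie in the 3′UTR of the MANE Select isoform alone. Over the stretch at 185644330 there were 246 input and 3389 IP reads in hPSC, 457 against 1134 in DE, 335 against 1133 in PP and 1333 against 4893 in hILO. WT PP had 362 against 694 and A5-KO PP 334 against 404. Enrichment was 0.49 ± 0.10, −0.04 ± 0.08, −0.44 ± 0.09, 0.46 ± 0.04, −1.09 ± 0.09 and −2.16 ± 0.11 in that order. hPSC and hILO were the 2 highest, and hILO was 0.91 ± 0.10 above PP, the largest such increase of a reader peak between these stages. By the deposited log2 values that difference was 0.09, with DE (0.15) and hILO (0.13) side by side, and with a GC term it was 0.59. A peak at the 5′ end (chr3:185824888-185825037, 5′UTR) was present in hPSC, DE and WT PP.

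IGF2BP1 had a single peak in hPSC, DE and PP and 2 in hILO, and the peak shared by these 4 lay in the CDS at exon 6 (chr17:49038171-49038245). It had 396 input and 2775 IP reads in hPSC, 274 against 373 in DE, 260 against 649 in PP and 554 against 871 in hILO. The enrichment, −0.49 ± 0.08, −0.91 ± 0.11, −0.88 ± 0.11 and −0.76 ± 0.08, was below the median of each list. Batch 2 had no peak in that exon. The peaks of hPSC, PP and hILO also reached upstream into the stretch chr17:49036837-49036933, which 1 annotated transcript holds, and there WT PP had a peak as well (chr17:49036837-49036911). It had 182 input and 129 IP reads and an enrichment of −2.52 ± 0.17. A5-KO PP had a 3′UTR peak at chr17:49049740-49049789 with 498 input and 278 IP reads. The other WT PP peak (chr17:49036637-49036686) had 80 IP reads and no input read, so no fold is given for it.

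In the FMRP family, CDS peaks numbered 10 of 13 on FMR1, 5 of 18 on FXR1 and 6 of 13 on FXR2, and 3′UTR peaks 0, 6 and 3, on the longest isoform. In FMR1 the stretch at chrX:147944851-147945051, in exon 15, had a peak in each list. Its 50 nt core at chrX:147944976-147945025 lay under peaks with 259 input and 2396 IP reads in hPSC, 266 against 594 in DE, 333 against 1270 in PP, 620 against 1710 in hILO and 279 against 267 for WT PP. Enrichment was −0.09 ± 0.09, −0.20 ± 0.11, −0.27 ± 0.09 and 0.05 ± 0.07 in batch 1 and −2.09 ± 0.12 in WT PP. The batch 1 values lay within 0.32 of each other. WT PP had another peak in the same stretch (chrX:147944851-147944925), with 27 input and 247 IP reads and an enrichment of 1.12 ± 0.29. The WT PP peaks thus lay on either side of the batch 1 values. PP and WT PP are the same stage of the same line in different batches, and the part of the batch in these values was not tested. Upstream in the CDS, the stretches chrX:147936504-147936613 and chrX:147937466-147937600 lay under 1 peak each of DE, PP and hILO, which spans the intron between them. Its enrichment was −0.87 ± 0.15 for DE, −1.11 ± 0.12 for PP and −0.62 ± 0.09 for hILO, lower than at exon 15 in the same lists. A stretch further 3′ (chrX:147948530-147948777), with its midpoint outside the longest isoform but a part in the CDS, was marked in hILO with 267 input and 466 IP reads and in WT PP with 615 and 364. All 13 FMR1 peaks also named ENSG00000274086, a short RNA gene at chrX:147911822-147911948 that reaches the first FMR1 exon and lies on the same strand, so none names FMR1 alone.

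Of the 18 FXR1 peaks, 6 lay in the 3′UTR and 7 outside the longest isoform, and by the MANE Select isoform 10 lay in the 3′UTR. Its region at chr3:180976280-180976354 had a peak in all lists but PP, and the reads were 375 input and 2477 IP in hPSC, 1120 and 1353 in DE, 852 and 1173 in hILO, 782 and 1254 for WT PP and 501 and 770 for A5-KO PP. Enrichment was −0.57 ± 0.08, −1.08 ± 0.06, −0.95 ± 0.06, −1.35 ± 0.07 and −1.81 ± 0.08, below the median of its list each time, though the deposited log2 value for WT PP was 0.12 above it. The only FXR1 peak of PP lay elsewhere, in an exon of 1 retained intron transcript (chr3:180947941-180948015), with 140 input and 585 IP reads. A second 3′ stretch, chr3:180979205-180979504, held 2 GGAC sites and had peaks in hPSC, DE, WT PP and A5-KO PP. A CDS stretch, chr3:180970158-180970403, had a peak in 4 lists as well. Its reads were 1106 input and 1605 IP in hILO, 892 and 1116 for WT PP and 736 and 573 for A5-KO PP, and the DE peak has no reads here. Enrichment was −0.87 ± 0.06, −1.70 ± 0.06 and −2.79 ± 0.08 in that order. By the deposited log2 values it was −0.62, −0.29 and −1.6, with WT PP above hILO.

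FXR2 showed no region with a peak in more than 3 lists. The 3′UTR region at chr17:7591230-7591279 was shared by hPSC, DE and hILO, with 71 input and 708 IP reads, 779 and 1284, and 310 and 792. Enrichment was 0.01 ± 0.18, −0.63 ± 0.07 and −0.06 ± 0.10. Input density was 178, 824 and 72.6 in that order. The CDS stretches chr17:7592504-7592599 and chr17:7592694-7592785 were found in the same 3 lists, and a further CDS stretch, chr17:7594263-7594347, in DE, PP and hILO. PP had 1 peak, in the CDS (chr17:7594263-7594389, 184 and 573 reads). In batch 2 the peaks lay at the 5′ end. WT PP had a 5′UTR peak (chr17:7614641-7614865, 81 and 258 reads), and A5-KO PP a CDS peak (chr17:7614466-7614565) with 101 IP reads and no input read.

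Of the nuclear readers, HNRNPA2B1 had 9 peaks in hPSC, 5 in DE and in hILO, 2 in PP and WT PP, and a single peak for A5-KO PP. A lower number did not always mean less covered sequence. In DE, PP and hILO a single peak of 1674 to 1949 nt ran over the stretch that hPSC covered with 3 peaks (chr7:26192301-26192400, chr7:26192426-26192475 and chr7:26192551-26195766). These long peaks held 52957 input and 96034 IP reads in DE, 29542 and 107232 in PP and 31035 and 76080 in hILO, and the longest of the hPSC peaks 12437 and 114074. Enrichment was −0.10 ± 0.01 for that hPSC peak, and −0.49 ± 0.01, −0.34 ± 0.01 and −0.12 ± 0.01 for the long peaks of DE, PP and hILO. By the deposited log2 values they were 0.09, −0.19, 0.24 and 0.05 in that order. PP was then highest, so the order of the lists depends on the measure. In A5-KO PP the peak at chr7:26192126-26192300 had 6856 input and 2371 IP reads. Its enrichment of −3.96 ± 0.03 was the lowest of any reader peak with reads. By the deposited log2 value it was −2.78 and not the lowest, as an FXR1 peak of the same list was at −3.57. Input density over the long peaks was 2510 for DE, 2490 for PP and 559 for hILO. From PP to hILO the median change over all shared pairs was −1.02 on the log2 scale.

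A 3′UTR peak of HNRNPA2B1 at chr7:26190376-26190550 in hPSC (256 input and 3487 IP reads, enrichment 0.47 ± 0.09) was the highest of this gene with at least 50 input reads. In DE the peak at chr7:26190401-26190525 had 1086 and 1805 reads and an enrichment of −0.62 ± 0.06. The difference, −1.09 ± 0.11, was the largest decrease of a reader peak from hPSC to DE, and it was −0.83 with a GC term. No other list had a peak there. Further 3′, a peak over 3 exons, with its midpoint outside the longest isoform and a part in the 3′UTR of that isoform (chr7:26174707-26190025, 1643 nt of exon), was listed with the same coordinates in hPSC, PP and hILO. Its reads were 2403 and 27159, 1430 and 4053, and 4035 and 8849, and its enrichment 0.21 ± 0.03, −0.69 ± 0.04 and −0.28 ± 0.03. DE had none there, and WT PP had a peak over its most distal 75 nt only.

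HNRNPC carried the peaks with its most reads over the stop codon, where they reached both the CDS and the 3′UTR of the longest isoform. The whole stretch is chr14:21210911-21211566, and 18 annotated transcripts, 16 of them protein coding, hold its midpoint. Over chr14:21211136-21211510 there were 6042 input and 54198 IP reads in hPSC, 8041 against 16412 in DE, 5209 against 17862 in PP and 10551 against 28302 in hILO. Enrichment was −0.13 ± 0.02, −0.32 ± 0.02, −0.42 ± 0.02 and 0.01 ± 0.02, a range of less than 1 on the log2 scale. Input density was 1780, 1700, 1750 and 511, where the median log2 change over all shared pairs from PP to hILO was −1.02. Near the other end of the gene, the stretch chr14:21263601-21263850, outside the longest isoform, was marked in the same 4 lists, with 170 and 1453 reads in hPSC, 84 and 113 in DE, 226 and 576 in PP and 507 and 1111 in hILO. Enrichment was −0.20 ± 0.12, −0.93 ± 0.21, −0.85 ± 0.11 and −0.28 ± 0.08 there. By the deposited log2 values the first region gave 0.03, 0.21, 0.14 and −0.08 and the second −0.04, −0.11, −0.89 and −0.48, so the order of the populations depends on the measure. Batch 2 lists give no reads for a gene without a peak, so the level of HNRNPC there was not analysed here. Of the 15 relatives of the readers, HNRNPA1, HNRNPK and HNRNPH1, which act in splicing and RNA processing, likewise had no peak in WT PP or A5-KO PP. HNRNPK had none in hPSC either, and 9 relatives had a peak in every list. The share of all genes marked in batch 1 alone was not counted here.

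ELAVL1 had 1 peak over its stop codon in each of the first 5 populations and 3 peaks in A5-KO PP. The region common to all lists was chr19:7963423-7963547, in the last exon (exon 6). Reads were 460 input and 3916 IP in hPSC, 644 and 1141 in DE, 535 and 4094 for WT PP and 624 and 2720 for A5-KO PP, and the PP and hILO peaks have no clear row. Enrichment was −0.21 ± 0.07 for hPSC, −0.53 ± 0.07 for DE, 0.91 ± 0.07 for WT PP and −0.31 ± 0.06 for A5-KO PP. By the deposited log2 values it was −0.03, −0.36, 2.4 and 0.63, so A5-KO PP turned from below its median to above it. The WT PP value was the highest of the 4. Its peak was also the longest, 525 nt against 150 nt in hPSC and DE.

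**Figure D4:**
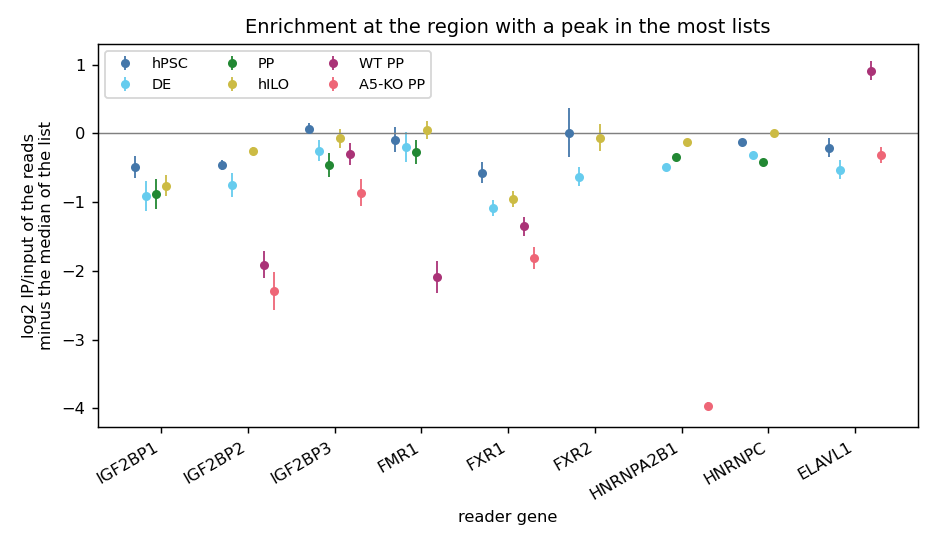
Enrichment (vertical axis, log2 ratio of IP to input reads minus the median of the list) of the peak over the region with a peak in the most lists, for each reader (horizontal axis) and list (color). Bars are 95% counting intervals, and peaks with no reads here are not drawn. Batch 1 values lie between −1.08 (FXR1, DE) and 0.07 (IGF2BP3, hPSC), and batch 2 values between −3.96 (HNRNPA2B1, A5-KO PP) and 0.91 (ELAVL1, WT PP). The spread of all peaks was also wider in the batch 2 lists.

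To compare stages, a peak was called inherited when peaks of the list before covered over 50% of its exonic length. In DE 21 of 27 reader peaks were inherited from hPSC, where 64.1% of all DE peaks were. In PP 15 of 21 were inherited from DE, beside 56.4% of all PP peaks, and in hILO 12 of 30 from PP, beside 45.1% of all hILO peaks. Among the IGF2BP readers, 5 of 5 IGF2BP2, 2 of 4 IGF2BP3 and 1 of 1 IGF2BP1 peaks of DE were inherited from hPSC. From DE to PP the counts were 3 of 4, 5 of 5 and 0 of 1, and 4 of those 5 IGF2BP3 peaks were fragments under the single DE peak of the repeat exon. From PP to hILO they were 1 of 3, 3 of 4 and 1 of 2. Between the progenitors, 12 of 20 reader peaks of A5-KO PP were covered by WT PP peaks, beside 46.3% of all. Across batches, 4 of 21 reader peaks of PP were covered by WT PP, where 57.3% of all PP peaks were, and 7 of 24 of WT PP by PP, where 22.1% were.

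Differences in enrichment at shared peaks were counted from 1 on the log2 scale. From hPSC to DE, 1 of 20 reader pairs was at least 1 higher and 1 at least 1 lower, with backgrounds of 1.64% and 1.85% of 19374 shared pairs. The higher pair, the 5′UTR peak of IGF2BP2 at 1.04 ± 0.32, had only 29 input reads in DE. From DE to PP, 0 of 11 pairs were past 1 in either direction (background 2.61% higher and 2.29% lower). From PP to hILO, 0 of 11 pairs were past 1 (background 3.3% and 2.08%). The median reader difference was −0.30, −0.07 and 0.32 for the 3 steps, beside −0.06, −0.12 and 0.22 over all shared pairs, so the readers stayed close to the median of all pairs in the last 2 steps. In the rows as deposited 3 pairs from DE to PP and 4 from PP to hILO were past 1. Input density at the 11 pairs from PP to hILO was lower in hILO in all 11, by a median of −1.22 on the log2 scale. The median over all shared pairs was −1.02.

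Between WT PP and A5-KO PP, 5 of 9 reader pairs were at least 1 lower in A5-KO PP and 0 at least 1 higher, with backgrounds of 32.8% lower and 14.0% higher among 20871 shared pairs. The 5 belonged to ELAVL1 (2), IGF2BP2, IGF2BP3 and FXR1. By the deposited log2 values 4 of them stayed past −1, while the IGF2BP2 pair, at −1.07 here, turned to 0.55. The median reader difference was −1.07, beside −0.57 over all pairs, whose middle 50% ran from −1.26 to 0.20. The medians subtracted were 2.03 for WT PP and 2.43 for A5-KO PP, lists with many peaks that lack input reads, and the part of that in the differences was not tested. When more than 50% of both peaks had to be covered, 1 pair was past 1. The largest was at the ELAVL1 3′UTR peak chr19:7963048-7963247, with 56 input and 85 IP reads in A5-KO PP. It was paired with the 525 nt WT PP peak that also pairs with the other ELAVL1 peak, and the difference was −2.75 ± 0.26. In the rows as deposited the same pair gave 1.1. For IGF2BP3 the 3′UTR peak at chr7:23311109-23311208 had 76 input and 76 IP reads in A5-KO PP beside 54 and 244 in WT PP, a difference of −2.56 ± 0.32. For FXR1 the CDS peak at chr3:180970304-180970353 had 736 and 573 reads beside 892 and 1116, a difference of −1.09 ± 0.10. The single pair that was higher in A5-KO PP, at the distal 3′ stretch of FXR1, was 0.58 ± 0.73, within its counting error.

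**Figure D5:**
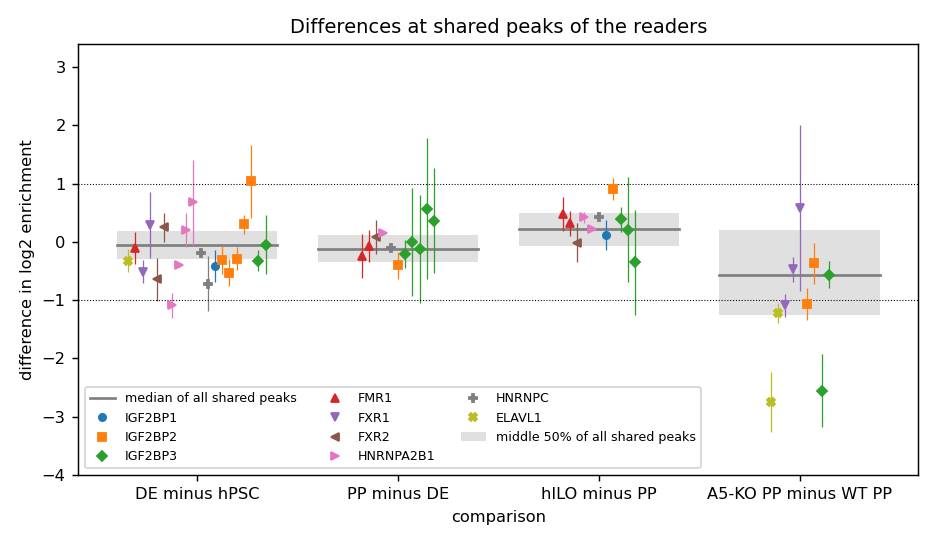
Difference in log2 enrichment (vertical axis) at reader peaks shared between 2 lists, for 4 comparisons (horizontal axis). Each symbol is 1 pair of peaks with its 95% counting interval, gray boxes are the middle 50% and gray lines the median of all shared pairs, and dotted lines mark −1 and 1. Most stage pairs lie between the dotted lines, and 5 of the 9 A5-KO PP pairs lie under −1.

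The letters under the peaks were counted over all readers. Exons covered by a peak held 21.8 DRACH sites per 1000 nt and 5.35 GGAC sites, and the remaining exons of the same genes 18.6 and 2.64. All peaks of the 6 lists held 22.4 and 4.74. The difference within the readers was uneven. IGF2BP3 had 14.6 GGAC sites per 1000 nt in covered exons and 3.08 outside, with 21 of its 30 covered sites in the repeat exon. FMR1 had 5.59 and 1.30, while IGF2BP2 had 1.94 and 3.97, fewer in covered exons than outside. IGF2BP1 (2.22 and 4.36) and ELAVL1 (2.67 and 2.74) also had fewer GGAC sites in covered exons, and the other readers had more. DRACH was less dense in covered exons of IGF2BP1, FXR1, FXR2 and HNRNPA2B1 and denser in those of the other readers.

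Other factors of the m6A pathway also carried peaks. All 8 writer genes (METTL3, METTL14, WTAP, VIRMA, ZC3H13, CBLL1, RBM15 and RBM15B) and all 5 YTH readers (YTHDF1, YTHDF2, YTHDF3, YTHDC1 and YTHDC2) had a peak in each list, beside 37.7% of protein-coding genes. Of 2 erasers, ALKBH5 did and FTO did not, as it had no peak in hPSC and hILO. Among 15 HNRNP and ELAVL relatives 9 had a peak in every list, and of 5 further proposed readers PRRC2A, G3BP1 and EIF3A did. With p below 1e-05 these counts were 6 of the 8 writers, 4 of the 5 YTH readers, 1 of the 2 erasers, 8 of the 15 relatives and 2 of the 5 further readers, beside 21.7% of protein-coding genes. The genes most like IGF2BP3 in median enrichment over the 6 lists, among 1395 genes with at least 3 peaks in each, were PSIP1, EDA and MLLT3. Their root mean square differences from it were 0.323, 0.343 and 0.352.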

How the data were processed

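For 24 m6A-seq libraries the authors used fastp for trimming, HISAT 2 for alignment to GRCh38, and called peaks with exomePeak2 on the 2 IP and 2 input libraries of a population together. The deposited lists give, per peak, pooled IP and input read counts, the log2 enrichment of exomePeak2, and a p-value. Peaks were reduced to the exons of their gene (GENCODE 44) in Python 3.11.15 with pandas 2.3.3. Coordinates and peak numbers as deposited were out of register with the counts, so counts were assigned to coordinates by the order of peak numbers (shifts of up to 60 rows considered), a step tested on simulated data. Since the deposited log2 value out of register mixes the reads of 1 peak with the GC content of another, the log2 ratio of the assigned counts (1 added, centered per list) replaced it as the measure of enrichment and it became an alternative. Deposited p-values served only as thresholds, for counts of peaks and genes in the results and among the alternatives. Counting errors used 0.5 added to the counts. How libraries were pooled, by sum or by mean, was not given in the sources used here. Named peaks were, per reader, the region in the most lists and the highest peak with at least 50 input reads, and per comparison the largest rise and fall. The DE peak in the 5′UTR of IGF2BP2, the repeat exon of IGF2BP3 and further reader peaks were named after their values were seen. Readers and gene lists were chosen with earlier results of these data known. The window of 1 reader is not reported here.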

Additional observations from a re-analysis of the deposited data

How the results depend on the processing

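No paired analysis was possible because every list merges its replicate libraries, and for the same reason no replicate was left out and no replicate block was fitted. The 151 reader peaks became 69 with an IP/input ratio of at least 3 by the deposited log2 value and 72 with p below 1e-10. With p below 1e-05 there were 104, and readers with a peak in all 6 lists numbered 4 in place of 8. Placing peaks by any overlap rather than by midpoint gave 61 peaks in the CDS in place of 33 and 34 outside the longest isoform in place of 54. The number of pairs past 1 from hPSC to DE, 2, became 1 with the deposited log2 values, 1 with at least 50 input reads, 1 with more than 50% of both peaks covered and 0 with a GC term. From DE to PP and from PP to hILO the reads of the rows as deposited gave 3 and 4 pairs in place of 0. From WT PP to A5-KO PP the 5 pairs became 1 with more than 50% of both peaks covered. The ELAVL1 difference of −2.75 changed sign to 1.1 in the rows as deposited. GGAC in place of DRACH gave 5.35 sites per 1000 nt in place of 21.8, and a ratio of covered to remaining exons of 2.03 in place of 1.17. A count or density was taken as moved when it changed by more than 1.5 times, and a single difference when it changed by more than its 95% counting interval. By these limits 47 other summary values and 57 values of single readers or peaks did not move, and 37 single values did. Over all shared pairs the share past 1 was 3.49% to 5.39% in the stage comparisons and 46.8% for A5-KO PP against WT PP. In the rows as deposited it was 10.9% to 15.5% and 61.2%. The alternatives with a GC term, with the rows as deposited, with clear rows only and with p applied to genes with a peak in all lists were chosen after seeing the data. The depth inside peaks, with 6 to 12 input reads in some peaks, limits the values of the repeat exon in PP.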
